A study of Homo sapiens with 10 samples.

Results

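Cyclins, cyclin-dependent kinases (CDKs), the inhibitor proteins that bind them and the retinoblastoma (pocket) proteins were followed in human embryonic stem cells. Cells labelled as KCNH2 knockout were compared with wild-type cells. Members were taken by gene symbol: every name of the form CCN or CDK followed by the letter or number of a cyclin or kinase, plus the inhibitors CDKN1B, CDKN1C, CDKN2A, CDKN2B and CDKN2D and the pocket proteins RB1, RBL1 and RBL2. The p53 target CCNG1 was left out, and 1 further inhibitor named in the rule is not analysed here. This gave 53 of the 32152 genes in the count table: 25 cyclins, 20 CDKs, 5 inhibitors and 3 pocket proteins. The rule used names and no measured values, but it was chosen with earlier results of these data known.

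The libraries were made from polyA RNA of the established line WAe009-A, also known as H9, 5 from cells labelled as KCNH2 knockout and 5 from isogenic wild-type (WT) cells. KCNH2 encodes the hERG1 potassium channel, and the series compares the genotypes in undifferentiated culture. Both grew on Matrigel, the WT cells in TeSR-E8 and the KCNH2-/- cells in mTeSR Plus, and the effects of genotype and of medium cannot be told apart anywhere below. The genotype field says knockdown while titles and growth protocol say knockout. The labels do not say whether the knockout libraries come from 1 clone, nor that replicates are separate cultures. The p-values therefore reflect the spread among these libraries alone, and that spread may be technical.

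A cyclin switches on its CDK partner by binding it, and different pairs act at different points of the cell cycle. D cyclins with CDK4 and CDK6 phosphorylate the pocket proteins, which releases E2F factors. Cyclins E and A with CDK2 drive entry into and passage through DNA synthesis, and cyclins A and B with CDK1 drive mitosis. Inhibitors of the Cip/Kip family (CDKN1B, which encodes p27, and CDKN1C, which encodes p57) bind cyclin-CDK pairs, while those of the INK4 family (CDKN2A, CDKN2B, CDKN2D) bind CDK4 and CDK6. A further branch of the family works in transcription: CDK7, CDK9, CDK12 and CDK13 phosphorylate the tail of RNA polymerase II, CDK8 and CDK19 belong to Mediator, and CDK10 and the CDK11 kinases have other nuclear roles. Pluripotent stem cells are known for a short G1 phase and for little INK4 expression.

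Promoter sequences are shown for the mitotic cyclins CCNB1, CCNB2 and CCNA2. In the main fit the B cyclins were higher in the knockout by nearly the same amount, and CCNA2 was not called. That contrast depends on the fit. With an offset for transcript length and GC, described below, neither CCNB2 nor CCNA2 was called (edgeR adjusted p = 0.165 and 0.314). CCNA2 passed in the DESeq2 Wald test (adjusted p = 0.0381). Each line gives the 130 bases before the RefSeq transcription start on GRCh38.p14, from 5′ to 3′ on the gene's strand. CCNB1 is at chr5:69167020-69167149 on the plus strand, CCNB2 at chr15:59105016-59105145 on the plus strand, and CCNA2 at chr4:121823884-121824013 on the minus strand. GENCODE 29 places an earlier start for all 3 genes, so part or all of each window lies inside its gene model. Capitals mark CCAAT boxes (CCAAT, or ATTGG where the box is on the other strand), which the factor NF-Y binds. They also mark the element TTTGAA, known as the cell cycle genes homology region. Only these exact letters were searched, so near forms such as tttaaa in CCNB1 and cttgaa in CCNA2 stay in lower case.
CCNB1: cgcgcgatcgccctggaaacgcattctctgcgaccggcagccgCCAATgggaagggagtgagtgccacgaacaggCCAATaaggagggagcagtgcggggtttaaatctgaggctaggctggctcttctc
CCNB2: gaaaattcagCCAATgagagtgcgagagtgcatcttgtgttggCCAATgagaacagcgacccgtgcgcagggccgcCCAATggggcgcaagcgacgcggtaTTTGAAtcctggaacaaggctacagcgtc
CCNA2: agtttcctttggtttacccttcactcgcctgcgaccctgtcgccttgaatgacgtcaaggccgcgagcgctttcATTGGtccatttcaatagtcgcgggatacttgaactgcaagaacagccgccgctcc

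The CCNB1 window held CCAAT 87 and 55 bases before the start. The CCNB2 window held it 120, 87 and 54 bases before the start, with TTTGAA at 29, and the CCNA2 window held the reverse box at 56. RefSeq promoters (250 bases before to 50 after the start) were matched by symbol for 48 of the 53 members and searched on both strands. CCAAT was found in 19 of the 48 (39.6%), beside 39.7% of 27305 promoters of all symbols, and TTTGAA in 7 (14.6%), beside 18.2%. The E2F-type motifs TTTCCCGC or TTTGGCGC were found in 3 members (6.25%), beside 2.75% of all promoters. CCAAT was present in 6 of 12 matched members that were higher in the knockout, 2 of 7 that were lower and 11 of 25 not called. For TTTGAA these were 1 of 12, 1 of 7 and 5 of 25, and for the E2F-type motifs 1, 0 and 2. CDK1, which was not called, and CCNF, which was lower, held both CCAAT and TTTGAA. Matches of different motifs may overlap by a few bases, and a match is a description of the letters only.

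Library totals ran from 28615751 to 47319933 counts. CPM below are counts per 1e6 of the TMM-scaled library size (edgeR), given as mean ± SD over 5 libraries. KCNH2 itself was lower in the knockout at 12.2 ± 1.001 CPM against 15.5 ± 0.75 CPM in WT, with no overlap between the groups (log2 fold change -0.35, edgeR adjusted p = 6.48e-04); where the edit lies is not given, so this level does not check the label. Stem cell markers were abundant in both groups, and 4 of 9 (44.4%) were called, all higher, beside 46.0% of all tested genes called either way. On a principal component that held 28.3% of the variance, knockout replicate 3 (-59.1) stood apart from the other knockout libraries (-2.3 to 13.9), and WT replicates 3 (-32.2) and 2 (-10.1) lay below the other WT libraries (25.0 to 35.8). Of the markers of other lineages, PAX6, SOX1, TBXT, COL3A1 and PECAM1 were at 0.302 CPM or less on average in both groups. These were not tested. The endothelial marker PECAM1 had 12 counts over the knockout libraries and 59 over WT, at most 0.134 and at least 0.261 CPM in a library. NES and THY1 were abundant and not called. The lineage lists below hold few tested genes, and of all tested genes 21.9% were called higher and 24.1% lower. Of 4 tested fibroblast markers 2 fell (COL1A1 and COL1A2, by 0.52 and 0.74). Of 3 tested neural markers 2 fell (DCX and TUBB3, by 0.68 and 0.26). Of 4 tested endothelial markers 2 rose (KDR and TEK, by 0.11 and 0.57) and 2 fell (CDH5 and VWF, by 0.99 and 1.15). Their summed levels in the knockout and in WT were 830.9 to 955.4 and 950.4 to 1027 CPM for fibroblasts, 457.1 to 506.1 and 483.8 to 505.6 CPM for neural progenitors, 81.3 to 84.2 and 72.6 to 77.0 CPM for endothelium and 1.39 to 1.86 and 1.36 to 1.87 CPM for mesoderm. The summed level of the 3 measured trophoblast and amnion markers was 10.6 to 14.5 CPM in the knockout and 28.2 to 35.8 CPM in WT, and that of the 3 endoderm markers was 1.34 to 1.65 CPM against 3.64 to 6.57 CPM. Of 2 tested trophoblast and amnion markers 2 fell (GABRP and KRT7, log2 fold changes -1.78 and -0.63). Of 2 tested endoderm markers 2 fell (FOXA2 and CXCR4, log2 fold changes -3.23 and -0.36). The part of these cells in the results below was not tested. In bulk RNA, a change in the share of cells at one stage of the cycle and a change in RNA per cell cannot be told apart.

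Most cyclin and CDK genes differed little between the groups, and a few stood out. Called with a log2 fold change of at least 0.3 in size were CDK6, CDKN1C, CCNE2, CCNK and CDK7, which rose, and CDK14, CCNI2 and CDK12, which fell. The calls of CCNE2 and CCNI2 were lost in 5 and 11 of 19 alternative fits, and CDK7 and CDK12 fell under 0.3 in size in the fit with an offset for transcript length and GC. Among the 53 genes, 49 had enough counts for the test, the quasi-likelihood F-test of edgeR, with p-values adjusted by Benjamini-Hochberg over 19163 genes at a threshold of 0.05. Of these 49, 22 were called (44.9%), which is close to the 46.0% of all tested genes. The calls were 14 higher in the knockout, beside a background of 21.9% of all genes, and 8 lower, beside 24.1%. The 5 and 5 libraries did not overlap for 17 members (34.7%, against 34.0% of all genes). Those past 0.3 made up 8 members (16.3%, against 22.9%), and none of the 49 reached 1. The median size of the log2 fold change was 0.14 over the members and 0.20 over all genes, and the median signed value was 0.07 and 0.002.

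Beyond the calls, the log2 fold change ran down with transcript length: the members' Spearman coefficient was -0.43 over 49 genes, and over 18958 tested genes of known length it was -0.33. Points share the same libraries, and length is that of 1 transcript per gene in GENCODE 29. The median transcript was 2127 bases for members called higher and 4651 bases for those called lower. An edgeR fit with an offset for transcript length and GC content was therefore run beside the test. Its value is given for members wherever it ended or made a call, or moved a called value by more than 1.5 times. For members not called it is given where it turned the sign, or moved a gene given in every library by that much. Of the 22 calls, 11 held in all 19 alternative fits: CDK6, CDK7, CDK9, CDK11B, CCNK, CCNB1, CDKN1B and CDKN1C among the higher genes and CCND1, CDK12 and CDK14 among the lower ones.

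**Figure D1:**
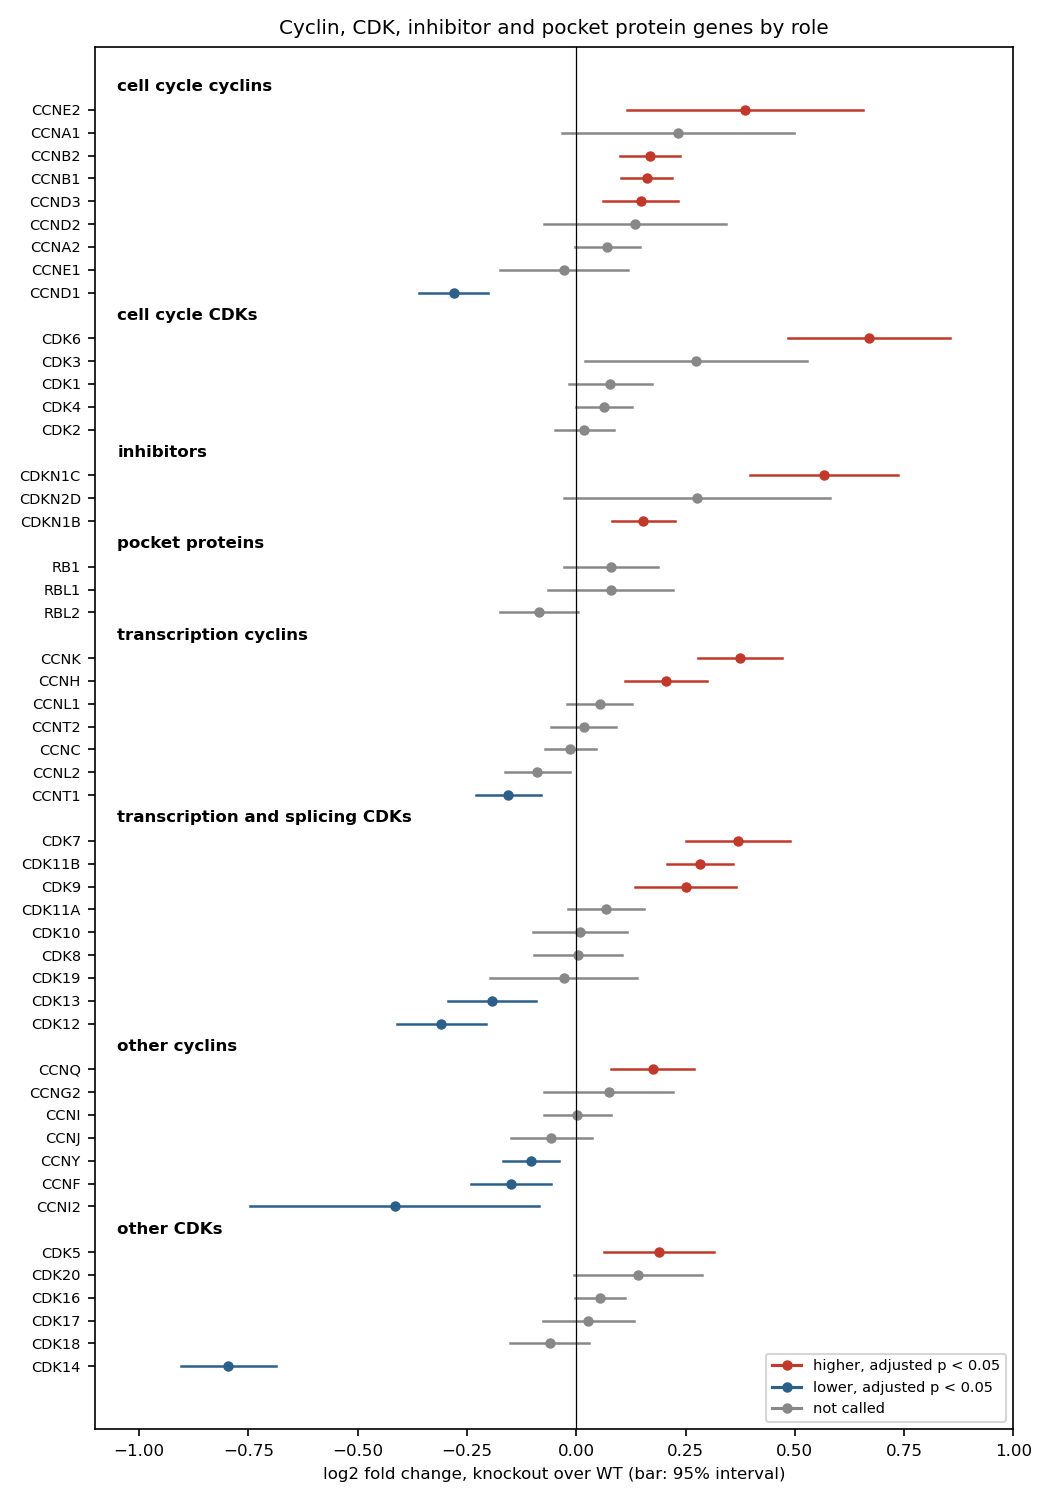
Log2 fold change of the 49 tested members, knockout over WT, grouped by role on the vertical axis; bars are 95% intervals from the edgeR fit, and red, blue and grey mark higher, lower and not called. CDK6 at 0.67 and CDK14 at -0.80 lie farthest out, and every value stays inside 1 in size.

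The cyclins and CDKs that act in G1 moved in different directions. CDK6 and CCND3 rose, CCND1 fell, and CDK4 and CCND2 did not pass the test. CCND1, which encodes cyclin D1, measured 155.1, 149.4, 145.8, 145.7 and 145.6 CPM in knockout replicates 1 to 5 and 164.4, 185.2, 181.7, 183.2 and 186.2 CPM in WT. All knockout libraries were below all WT libraries, and WT replicate 1 was the nearest to them. CCND1 fell by 0.28 on the log2 scale (SE 0.04, edgeR adjusted p = 7.52e-05), and with the length and GC offset the value was -0.18 (adjusted p = 0.00115).

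CCND2, which encodes cyclin D2, was uneven within the knockout. Its level was 101.5, 106.5, 138.2, 139.1 and 129.3 CPM in the knockout and 120.0, 109.5, 111.7, 96.3 and 122.4 CPM in WT. Knockout replicates 1 and 2 lay within the WT range and the other three above it. The log2 fold change was 0.14 (SE 0.10, edgeR adjusted p = 0.272). It was 0.27 with the length and GC offset, which passed (adjusted p = 0.0322). CCND3, for cyclin D3, measured 33.2, 33.6, 30.8, 30.9 and 32.8 CPM against 28.3, 29.4, 27.8, 29.4 and 30.8 CPM, with the groups just touching. It rose by 0.15 (SE 0.04, edgeR adjusted p = 0.00945), and its adjusted p was 0.0523 without knockout replicate 3 and WT replicates 2 and 3.

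Per kilobase of transcript, cyclin D1 was the most abundant D cyclin mRNA in both groups. Its share of the 3 D cyclins was 50.03 ± 2.27% in the knockout and 57.2 ± 2.001% in WT, while cyclin D3 held 22.5 ± 1.33% and 19.1 ± 0.52%. Shares of cyclin D2 overlapped, at 27.5 ± 3.47% and 23.6 ± 2.07%.

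CDK6, which encodes the less abundant of the 2 kinases that pair with D cyclins, showed the largest rise of any tested member. Knockout libraries held 31.0, 28.8, 39.5, 36.9 and 32.2 CPM and WT libraries 21.7, 20.8, 22.2, 18.7 and 22.5 CPM. The lowest knockout library, replicate 2, was still above every WT library. The gene (chromosome 7, 92604921 to 92836594, GRCh38) rose by 0.67 on the log2 scale (SE 0.08, edgeR adjusted p = 6.67e-05), which is 1.59-fold. Its partner kinase CDK4 measured 180.2, 181.0, 188.3, 182.0 and 181.0 CPM against 170.0, 176.6, 175.9, 184.4 and 166.7 CPM in WT. WT replicate 4 lay above 4 of the knockout libraries. The CDK4 log2 fold change was 0.06 (SE 0.03, edgeR adjusted p = 0.102), and without WT replicate 4 it was 0.08 with an adjusted p of 0.0314, while with the offset it was 0.04 and not called. Per kilobase, CDK6 made up 3.19 ± 0.36% of the CDK4 and CDK6 mRNA in the knockout and 2.13 ± 0.22% in WT, so CDK4 remained by far the larger part.

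Both Cip/Kip inhibitors among the members rose, as did the third gene of that family, CDKN1A, which is no member and is given further on. CDKN1C measured 15.3, 17.4, 20.9, 18.9 and 19.4 CPM in the knockout and 13.01, 12.1, 13.2, 11.4 and 12.4 CPM in WT, without overlap. This imprinted gene on chromosome 11 (2883213 to 2885773) rose by 0.57 on the log2 scale (SE 0.08, edgeR adjusted p = 1.14e-04). CDKN1B measured 45.6, 46.9, 48.7, 48.0 and 48.5 CPM against 44.4, 41.8, 43.1, 40.6 and 43.8 CPM. The groups again did not overlap, and the rise of 0.15 (SE 0.03, edgeR adjusted p = 0.00249) was smaller than that of CDKN1C.

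Of the INK4 genes among the members, CDKN2A and CDKN2B were near the lower limit of detection in both groups. CDKN2A had 39 counts over the 5 knockout libraries and 34 over WT, and CDKN2B had 19 and 9, so neither was tested. CDKN2D was measurable at 2.45 ± 0.42 CPM against 2.03 ± 0.28 CPM with overlapping libraries (log2 fold change 0.28, SE 0.14, edgeR adjusted p = 0.126; 0.16 with the offset).

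The pocket proteins did not pass the test, 0 of 3 in edgeR, beside 46.0% of all tested genes called. Of these 3, 0 had an unadjusted p under 0.05 or were called by DESeq2 or limma voom. RB1, which encodes the retinoblastoma protein, measured 22.2, 22.2, 23.0, 20.05 and 19.99 CPM in the knockout and 19.2, 20.2, 20.4, 20.6 and 21.4 CPM in WT (log2 fold change 0.08, SE 0.05, edgeR adjusted p = 0.212). RBL1, which encodes p107, measured 15.2, 13.7, 12.1, 12.28 and 12.99 CPM against 12.6, 12.4, 12.0, 13.5 and 12.3 CPM (0.08, SE 0.07, adjusted p = 0.354). RBL2, which encodes p130, measured 38.1, 37.5, 42.1, 40.1 and 38.7 CPM against 44.6, 39.9, 41.6, 41.6 and 40.9 CPM (-0.09, SE 0.04, adjusted p = 0.107). All 3 overlapped between the groups. Without knockout replicate 3 the RBL2 value was -0.11 and passed (adjusted p = 0.0367). With the length and GC offset RB1 was at 0.12, RBL1 at 0.15 and RBL2 at -0.02, and none of the 3 was called (adjusted p = 0.0639, 0.0923 and 0.767).

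**Figure D2:**
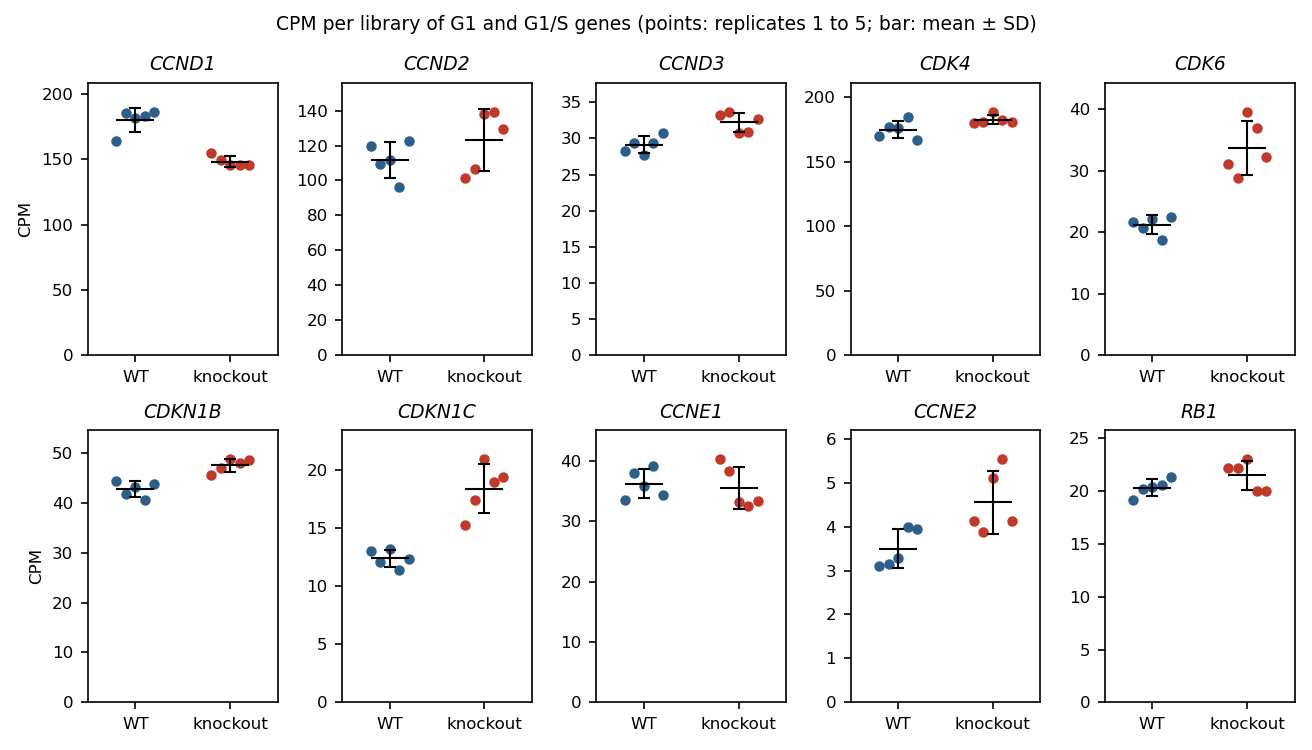
CPM (vertical axis, from 0) in each WT and knockout library of 10 genes of G1 and the G1/S transition; points are replicates 1 to 5 from left to right, and bars are the mean ± SD. CCND1, CDK6, CDKN1B and CDKN1C separate without overlap, while CCND2, CCNE1 and RB1 overlap.

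Of the E cyclins, which partner CDK2 at the entry to DNA synthesis, the rarer one rose and the main one did not pass the test. CCNE1 measured 40.3, 38.4, 33.2, 32.6 and 33.4 CPM in the knockout and 33.6, 38.1, 35.8, 39.2 and 34.4 CPM in WT. Knockout replicate 1 lay above every WT library and replicates 3 to 5 lay below every one (log2 fold change -0.03, SE 0.07, edgeR adjusted p = 0.761; -0.05 with the offset). CCNE2 measured 4.13, 3.87, 5.10, 5.53 and 4.13 CPM against 3.11, 3.14, 3.29, 4.00 and 3.95 CPM, with overlap. It rose by 0.39 (SE 0.12, edgeR adjusted p = 0.0226), but the call was lost when knockout replicate 4 (adjusted p = 0.0583), WT replicate 1 (0.0544) or WT replicate 2 (0.0571) was left out. It was also lost without both replicate 3 libraries (adjusted p = 0.0835) and without knockout replicate 3 and WT replicates 2 and 3 (0.162). CDK2 measured 61.4, 63.4, 58.3, 62.3 and 57.3 CPM against 60.04, 59.4, 60.3, 59.6 and 59.6 CPM (log2 fold change 0.02, SE 0.03, edgeR adjusted p = 0.659; -8.5e-04 with the offset).

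The B cyclins of mitosis rose together by a small amount. CCNB1 measured 269.3, 275.2, 270.9, 282.8 and 290.3 CPM in the knockout and 249.8, 249.0, 247.0, 254.3 and 241.8 CPM in WT. There was no overlap, and CCNB1 rose by 0.16 on the log2 scale (SE 0.03, edgeR adjusted p = 4.48e-04; 0.09 with the length and GC offset, adjusted p = 0.0136). CCNB2 rose by 0.17 (SE 0.03, edgeR adjusted p = 9.83e-04), from 102.4 ± 3.39 to 115.1 ± 3.88 CPM, and with the offset its value was 0.06 and not called (adjusted p = 0.165).

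The other genes of the mitotic engine did not pass the test. CCNA2, for cyclin A2, measured 158.6, 149.5, 145.1, 158.5 and 144.3 CPM in the knockout and 144.4, 139.4, 141.6, 149.0 and 145.5 CPM in WT (log2 fold change 0.07, SE 0.03, edgeR adjusted p = 0.109). CDK1 measured 138.2, 134.6, 154.9, 151.5 and 146.0 CPM against 142.3, 140.8, 141.2, 128.2 and 134.7 CPM (0.08, SE 0.04, adjusted p = 0.169). Both overlapped between the groups, and within the knockout CDK1 was lowest in replicates 1 and 2. With the length and GC offset CCNA2 was at 0.04 and CDK1 turned to -0.05, neither called (adjusted p = 0.314 and 0.332). The authors' deposited table, made with another test, puts CCNA2 past an adjusted p of 0.05 (0.0416).

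The remaining cell cycle members were rare. CDK3 was at 6.74 ± 1.21 CPM against 5.57 ± 0.34 CPM in WT (edgeR adjusted p = 0.0746; 0.00453 without knockout replicate 4), and the germ line cyclin CCNA1 at 1.37 ± 0.17 and 1.16 ± 0.08 CPM (adjusted p = 0.139). CCNB3, a meiotic cyclin on the X chromosome, had 18 and 29 counts in all and was not tested. Of 9 tested cell cycle cyclins 4 rose and 1 fell (55.6% called), beside 46.0% of all genes, and of 5 cell cycle CDKs 1 rose, beside 21.9% of all genes called higher. The calls of CCNB2, CCND3 and CCNE2 among these were lost in the alternatives named above.

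In the main fit, transcription kinases and cyclins of one complex moved in opposite directions in P-TEFb and the cyclin K complexes. In the CDK-activating kinase they moved in the same direction. With the length and GC offset CCNT1, CDK13 and CCNH were not called, while CCNT2 passed at 0.11. The CDK-activating kinase phosphorylates the activation loop of other CDKs and, as part of TFIIH, the tail of RNA polymerase II. CDK7 measured 49.96, 54.3, 63.7, 58.1 and 59.8 CPM in the knockout and 44.4, 44.3, 44.7, 43.6 and 44.3 CPM in WT. The WT libraries lay very close to one another, and all knockout libraries were above them, replicate 1 least. CDK7 rose by 0.37 (SE 0.05, edgeR adjusted p = 1.97e-04), and by 0.20 with the length and GC offset (adjusted p = 0.00943). Its cyclin, CCNH, rose by 0.21 (SE 0.04, edgeR adjusted p = 0.00209), though with the offset the value was 0.05 and not called (adjusted p = 0.357). MNAT1, the assembly factor of the complex and no member by name, rose by 0.24 (edgeR adjusted p = 0.00592). Its value with the offset was not examined.

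P-TEFb, the complex that releases paused RNA polymerase II, joins CDK9 to cyclin T1 or T2. CDK9 rose by 0.25 (SE 0.05, edgeR adjusted p = 0.00218), from 79.5 ± 2.31 to 94.6 ± 8.096 CPM. CCNT1 fell by 0.16 (SE 0.03, edgeR adjusted p = 0.00287), from 43.03 ± 1.66 to 38.6 ± 1.03 CPM, and both genes separated without overlap. With the length and GC offset the CCNT1 value was -0.05 and not called (adjusted p = 0.19). CCNT2 was at 54.6 ± 0.62 against 53.9 ± 2.65 CPM (edgeR adjusted p = 0.718; 0.11 with the offset, adjusted p = 0.0329). Its antisense neighbour CCNT2-AS1 was at 2.73 and 3.39 CPM, and whether the counting used strand is not given.

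The kinases that pair with cyclin K fell while cyclin K rose. CDK12, known for its part in the expression of long DNA repair genes, measured 53.6, 49.9, 49.5, 47.4 and 44.9 CPM in the knockout and 57.2, 59.3, 61.8, 62.8 and 62.8 CPM in WT. It fell by 0.31 (SE 0.05, edgeR adjusted p = 2.23e-04) without overlap, and with the length and GC offset the value was -0.15 (adjusted p = 0.0119). CDK13 fell by 0.19 (SE 0.05, edgeR adjusted p = 0.00464), also without overlap, but with the offset the value was -0.01 and not called (adjusted p = 0.872). Their transcripts, at 8336 and 10135 bases, are among the longest of the set. CCNK measured 79.8, 81.3, 92.1, 92.2 and 87.2 CPM in the knockout and 64.1, 67.3, 68.7, 66.0 and 68.1 CPM in WT. Every knockout library was above every WT library, and CCNK rose by 0.37 (SE 0.04, edgeR adjusted p = 3.89e-05).

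Of the 2 Mediator kinases and their cyclin, 0 were called in edgeR, DESeq2 or limma voom, beside 46.0% of all genes called in edgeR. An unadjusted edgeR p under 0.05 was found for 0 of them. CDK8 stood at 39.0 ± 2.64 against 38.9 ± 1.28 CPM, CDK19 at 15.3 ± 1.63 against 15.6 ± 1.19 CPM, and their cyclin CCNC at 85.6 ± 2.05 against 86.5 ± 2.14 CPM (edgeR adjusted p = 0.95, 0.782 and 0.694). With the offset CCNC was at -0.08 and passed (adjusted p = 0.0169), and CDK19 turned from -0.03 to 0.07 without a call. Of the other subunits of the same kinase module, named here after their values were seen, MED12 fell by 0.13 (edgeR adjusted p = 0.00921) without overlap, and MED12L, MED13 and MED13L were not called (adjusted p = 0.595, 0.237 and 0.291).

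The CDK11 kinases, which act in splicing, come from near-identical neighbouring genes 43.7 kilobases apart on chromosome 1, so their counts are uncertain where reads could go to either. CDK11B rose by 0.28 (SE 0.03, edgeR adjusted p = 4.91e-05), from 100.6 ± 2.27 to 122.4 ± 5.94 CPM, and CDK11A was at 63.5 ± 2.35 against 60.6 ± 3.14 CPM (adjusted p = 0.187; 0.0469 without knockout replicate 1). Of the L cyclins that pair with them, CCNL1 had a log2 fold change of 0.05 (adjusted p = 0.22) and CCNL2 one of -0.09. The CCNL2 value sat on the threshold: its adjusted p was 0.0116 without knockout replicate 3 and 0.0388 without WT replicate 5. With the length and GC offset the CCNL2 value was -0.09 and passed (edgeR adjusted p = 0.0321). CCNL2 also passed with the filter of at least 1 CPM in 5 libraries (0.0337) and without both replicate 3 libraries (0.0134). Without knockout replicate 3 and WT replicates 2 and 3 its edgeR adjusted p was 0.0339. CDK10 was not called, at 69.3 ± 4.17 and 68.9 ± 4.04 CPM, and its log2 fold change turned from 0.008 to -0.06 with the offset.

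**Figure D3:**
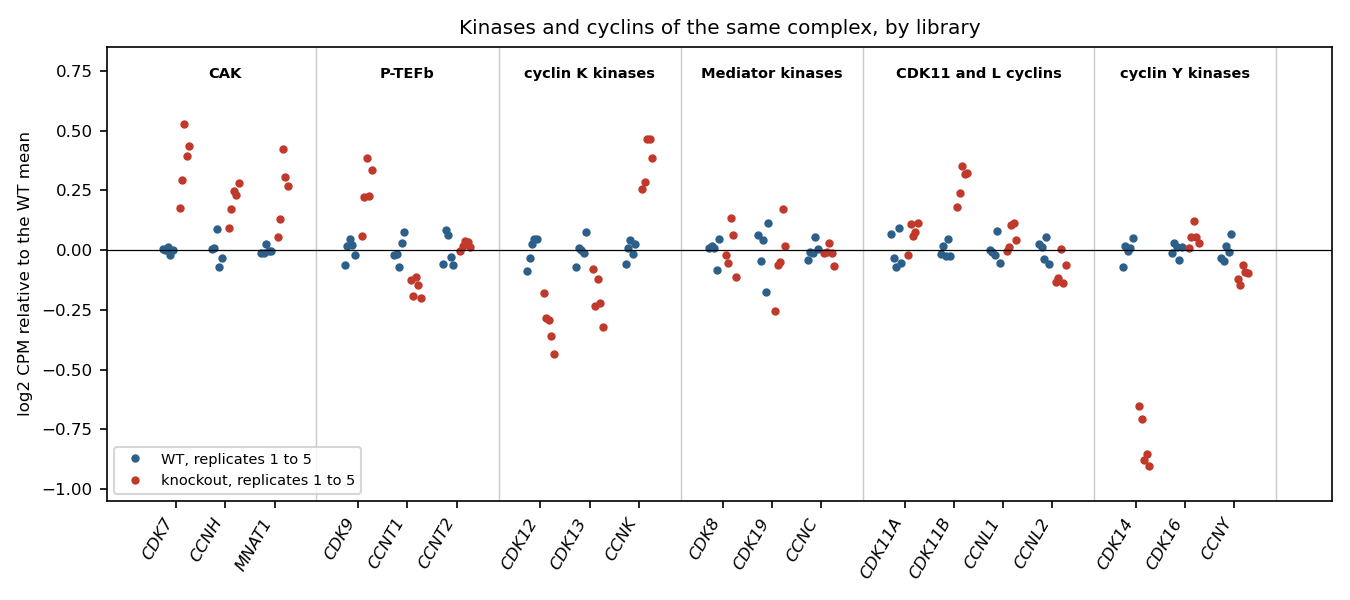
Log2 CPM of each library relative to the WT mean of its gene (vertical axis), for kinases and cyclins that work together; blue points are WT and red points knockout replicates 1 to 5 from left to right. The subunits of the CDK-activating kinase (CAK) all lie above WT, CDK12 and CDK13 lie below it while CCNK lies above, and CDK14 is the lowest of all.

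Of the remaining CDKs, CDK14 showed the largest difference of the 49 tested members. It encodes a membrane-linked kinase that pairs with cyclin Y and acts in WNT signalling. Knockout libraries held 40.1, 38.7, 34.3, 34.9 and 33.7 CPM and WT libraries 60.1, 63.7, 62.8, 63.4 and 65.4 CPM. The groups were far apart, and CDK14 (chromosome 7, 90466424 to 91210590) fell by 0.80 on the log2 scale (SE 0.05, edgeR adjusted p = 3.43e-07), to 0.58 of its WT level. CDK14 and CDK6 lie 1.39 megabases apart on chromosome 7 and moved in opposite directions. The cyclin Y gene CCNY fell by 0.10 (SE 0.03, edgeR adjusted p = 0.0116), from 62.4 ± 1.91 to 58.1 ± 1.30 CPM. That call was lost without knockout replicate 1 (adjusted p = 0.0577) and with the length and GC offset (-0.07, adjusted p = 0.0567). CDK16, another partner of cyclin Y, was at 215.5 ± 6.498 against 207.5 ± 4.02 CPM (adjusted p = 0.115; 0.00587 with the offset).

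CDK5, best known from neurons, lies 75.5 kilobases from KCNH2 and rose by 0.19 (SE 0.06, edgeR adjusted p = 0.018). It measured 14.8 ± 1.06 against 12.997 ± 0.68 CPM, with overlap, and was not called with the offset (0.12, adjusted p = 0.0828) or without knockout replicate 3 and WT replicates 2 and 3 (0.0566). CDK17, CDK18 and CDK20 were not called, with log2 fold changes of 0.03, -0.06 and 0.14, though CDK20 passed without knockout replicate 1 (adjusted p = 0.0481).

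Among the other cyclins 1 of 7 tested rose and 3 fell (57.1% called, beside 46.0% of all genes). CCNQ, an X-linked cyclin that pairs with CDK10, rose by 0.18 (SE 0.04, edgeR adjusted p = 0.00594) and was not called with the offset (0.04, adjusted p = 0.555). CCNF, the substrate receptor of a ubiquitin ligase, fell by 0.15 (SE 0.04, edgeR adjusted p = 0.0115). With the offset its value was -0.05 and not called (adjusted p = 0.372), and the call was also lost without both replicate 3 libraries (adjusted p = 0.056) and without knockout replicate 3 and WT replicates 2 and 3 (0.121).

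CCNI2 was the lowest called member, at 0.97, 1.196, 0.95, 1.02 and 0.85 CPM in the knockout and 1.47, 1.55, 1.16, 1.45 and 1.02 CPM in WT. The groups overlapped, and CCNI2 fell by 0.42 (SE 0.15, edgeR adjusted p = 0.0407), a call that was lost in 11 of the 19 alternatives. These were leaving out knockout replicate 1, 3, 4 or 5 or WT replicate 1, 2 or 4 (adjusted p from 0.0668 to 0.105), the DESeq2 Wald test (0.096), no filter (0.0775), and leaving out both replicate 3 libraries (0.0638) or knockout replicate 3 and WT replicates 2 and 3 (0.154). CCNG2, CCNI and CCNJ were not called, with log2 fold changes between -0.06 and 0.07 (CCNI turned from 0.002 to -0.008 with the offset), and CCNO, a cyclin of multiciliated cells, had 20 and 13 counts in all and was not tested.

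Ratios between alternative subunits were compared within each library, which needs no scaling between libraries. There were 12 pairs, each tested by a two-sided exact permutation test of the 5 and 5 libraries with Benjamini-Hochberg adjustment over the pairs. The smallest p that 5 against 5 can give is 0.00794. In 6 pairs the adjusted p was under 0.05, and in 5 of them the groups did not overlap. The pairs were chosen with earlier results of these data known, and they reuse genes tested above. The ratio tests are therefore no separate support for the calls of those genes.

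The balance moved from cyclin D1 towards cyclin D3 and from CDK4 towards CDK6. The log2 ratio of CCND1 to CCND3 counts was 2.20 ± 0.05 in the knockout and 2.63 ± 0.07 in WT, a difference of -0.43 (exact permutation, adjusted p = 0.0191). CDK6 to CDK4 went from -3.05 ± 0.16 in WT to -2.45 ± 0.17, a difference of 0.60 (exact permutation, adjusted p = 0.0191). Against cyclin D2, which was uneven in the knockout, cyclin D1 differed by -0.41 with overlapping libraries (exact permutation, adjusted p = 0.0681).

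CDKN1C gained on CDKN1B by 0.41, with every knockout library above every WT library (exact permutation, adjusted p = 0.0191). CDK13 gained on CDK12 by 0.12, and CCNL2 lost 0.14 to CCNL1, both with the groups apart (exact permutation, adjusted p = 0.0191). CCNT2 gained 0.17 on CCNT1 (exact permutation, adjusted p = 0.0318), which rose above the threshold when any 1 of 8 libraries was left out (0.0544 to 0.0635). CCNE2 over CCNE1 differed by 0.40 and RBL2 over RBL1 by -0.16, neither past the threshold (exact permutation, adjusted p = 0.0834 and 0.18). The ratio of CCNB2 to CCNB1 was -1.27 ± 0.05 in the knockout and -1.28 ± 0.06 in WT, a difference of 0.01, and CDK19 over CDK8 and CCND3 over CCND2 differed by -0.04 and 0.02.

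**Figure D4:**
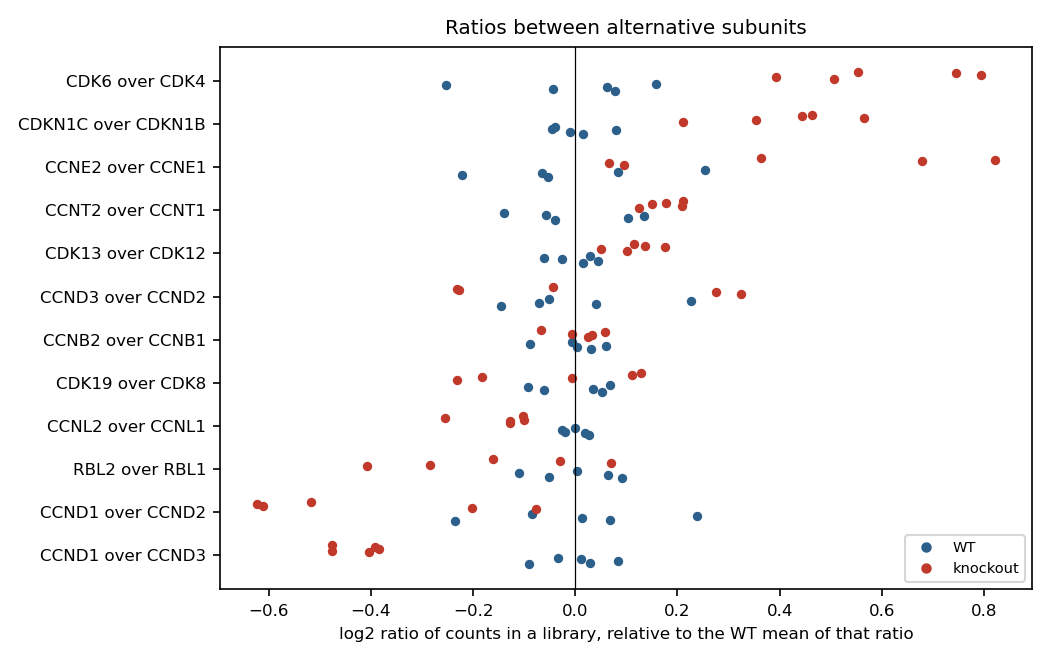
Log2 ratio of 2 genes' counts in each library, relative to the WT mean of that ratio (horizontal axis), for the 12 pairs on the vertical axis; blue points are WT and red points knockout libraries. CDK6 over CDK4, CDKN1C over CDKN1B and CCND1 over CCND3 are clear of the WT points, while CCNB2 over CCNB1 is not.

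Knockout replicate 1 was often the knockout library nearest to WT. Among the 22 called members it was nearest to the WT mean on the log2 scale for 12 (54.5%), including CDK7, CDK9, CDK11B, CDK12, CCNK, CCND1, CDKN1C and CDK14, and replicates 2, 3, 4 and 5 were nearest for 3, 5, 2 and 0. Over all 8816 called genes replicates 1 to 5 were nearest for 39.0%, 24.5%, 14.2%, 13.2% and 9.12%. This tally was chosen after the values were seen. The p53 target CDKN1A, which encodes the inhibitor p21 and is no member by the rule, was also nearest to WT in replicate 1, with 26.2 and 38.4 CPM in knockout replicates 1 and 2 and 100.9, 85.3 and 59.7 CPM in the other three. WT held 16.5 ± 2.57 CPM, below every knockout library.

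Levels between genes were compared per kilobase of transcript. In WT the most abundant members were CCNB1 at 114.5, CDK4 at 84.2 and CDK1 at 71.8 CPM per kilobase, followed by CCNI at 68.3 and CDK16 at 66.0. CCNB2 (65.8), CCNL2 (62.7), CCNA2 (51.5) and CCND1 (41.8) came next. CDKN1B (16.1) stood above CDKN1C (6.41), and CCNE1 (17.7) far above CCNE2 (1.05). The order at the top was the same in the knockout for the first 3 genes, at 128.03, 87.9 and 75.8 CPM per kilobase, and CCNB2 moved up to 74.0, where it and CDK1 differed by less than their spread. CDK6 was at 1.82 in WT and 2.90 in the knockout, so its rise left it among the rarer tested members.

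**Figure D5:**
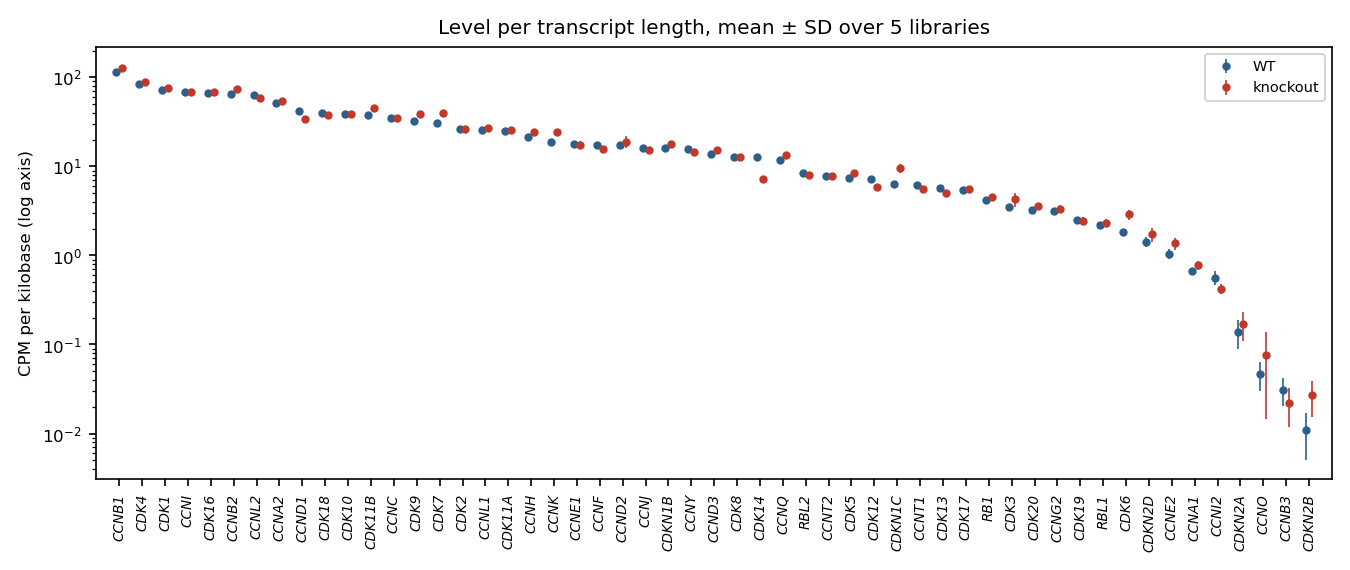
Level of each of the 53 members in CPM per kilobase of transcript (vertical log axis), ordered by the WT mean; points are means and bars the SD over 5 WT (blue) or 5 knockout (red) libraries. Values run from 114.5 for CCNB1 to 0.011 for CDKN2B in WT, and the groups lie close together for most genes.

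Other genes of the same pathway were described from lists of regulators and partners. Alternative fits, the length and GC offset among them, were examined for members only, so calls in these lists lack that check. Among CDK regulators (CDC25 phosphatases, the inhibitory kinases, CKS proteins and others), 10 rose and 0 fell of the 17 tested (58.8% called, beside 46.0% of all genes). CDC25B, at -0.11, had the only negative value with an unadjusted p under 0.05. The median of their log2 fold changes was 0.16, beside 0.002 over all genes. Transcripts of the genes that rose ran from 613 bases (CKS2) to 4325 bases (CDK5R1), and the part of length was not tested. CDKN1A rose by 1.91 (SE 0.32, edgeR adjusted p = 4.36e-04), CDK2AP2, a CDK2-binding protein, by 0.32, CKS2, a small subunit of CDK complexes, by 0.24, and CDC37, the chaperone partner that loads kinases such as CDK4 onto HSP90, by 0.24.

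Of 32 genes for the ubiquitin ligases that destroy cyclins and inhibitors, 12 rose and 9 fell (65.6% called, beside 46.0% of all genes), with a median of 0.04. UBE2S, which extends ubiquitin chains for the anaphase-promoting complex, rose by 0.34, RBX1, the RING subunit of cullin ligases, by 0.35, and ANAPC16 by 0.31. ANAPC1, the scaffold of the anaphase-promoting complex, fell by 0.27 (edgeR adjusted p for all of these from 2.68e-05 to 2.45e-04). Transcripts of UBE2S, RBX1, ANAPC16 and ANAPC1 measure 2548, 1188, 3567 and 8262 bases, and the offset was not examined for them. Among upstream regulators of the D cyclins 4 of 23 rose and 10 fell (60.9% called, beside 46.0% of all genes), with a median of -0.09. CTNNB1, which encodes β-catenin, fell by 0.45, MAPK3, which encodes ERK1, by 0.55, and FGFR1 by 0.38, whereas TCF7L2, a DNA-binding partner of β-catenin, rose by 0.50 (edgeR adjusted p from 7.43e-07 to 3.78e-05).

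E2F factors and the MuvB complex, the transcription machinery below the pocket proteins, had 2 of 17 genes higher and 1 lower (17.6% called, beside 46.0% of all genes), with a median of -0.04. LIN9 rose by 0.17 and E2F7, an atypical repressor, by 0.19, and E2F5 fell by 0.22 (edgeR adjusted p from 0.00197 to 0.00819). Among partners of the transcription CDKs 4 of 19 rose and 2 fell (31.6% called, beside 46.0% of all genes), with a median of -0.01. The P-TEFb inhibitors HEXIM2 and HEXIM1 went opposite ways, by 0.36 and -0.24, and the TFIIH subunits GTF2H5 and GTF2H2 rose by 0.25 and 0.18 (edgeR adjusted p from 8.7e-04 to 0.00823). GTF2H2 has near-identical copies, so its count is uncertain.

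The authors' deposited table gave 15 members higher and 7 lower at its adjusted p under 0.05, and 21 of these were also called here. All 49 tested members had the same sign in the authors' deposited table. That table's own yes-or-no call, given to 1217 genes in all, marked CDK6 and CDK14 and no other member.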

How the data were processed

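PolyA RNA libraries of H9 cells (5 knockout, 5 WT) were grouped by their titles. The authors deposited raw counts per gene without normalization. The authors' deposited comparison table gives each gene a mean normalised signal, a log2 fold change and its error, and a test score. It also gives the authors' p-value before and after adjustment. It served for symbols and for the comparison with the authors' calls. Per the submitters' processing notes, hg38, DESeq2 and R 3.6.3 were used. Aligner, counter, annotation and use of strand: not given in the sources used here. Reads of overlapping genes or near-identical copies may be shared.

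The raw counts were tested for an effect of group with glmQLFit and glmQLFTest of edgeR 4.0.16 (R 4.3.3), after filterByExpr and TMM scaling. P-values were adjusted by Benjamini-Hochberg over all 19163 genes tested, and an adjusted p under 0.05 was called. Ratios within libraries were tested by exact permutation (scipy 1.17.1 and numpy 2.4.6, Python 3.11.15). Positions and transcript lengths are from GENCODE 29 (GRCh38), in which 31146 genes had a position, and promoters are from RefSeq. At 28615751 to 47319933 counts in a library, 3 counts are 0.0634 to 0.105 CPM, and counting errors assume independent reads. The chi-square per degree of freedom between libraries of a group was 3.59 to 26.2, above sampling noise. Each library was treated as 1 replicate. The spread does not show whether the libraries are separate cultures.

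Alternatives were size factors from DESeq2 1.42.0, its Wald test, voom in limma 3.58.1, a looser or a stricter filter (none, or at least 1 CPM in 5 libraries), and a replicate block. Each library was left out in turn, then both replicate 3 libraries, then knockout 3 with WT 2 and 3. The last alternative was an offset per library for transcript length and GC, fitted by splines of 5 degrees of freedom. The fits were first tested on simulated counts. Values in every library are given for CCND1, CDK6, CDKN1C, 13 other core cell cycle genes and called members with a log2 fold change of at least 0.3 in size. Other members are given by role, with up to 4 genes of smallest p per pathway list. Members, lists and tests were chosen with earlier results of these data known.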

Additional observations from a re-analysis of the deposited data

Results flagged for a closer look

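In 66 groups of 5 libraries (CPM of named genes and the subunit ratios), 3 had a highest or lowest library whose gap to its neighbour exceeded 0.71 of the group's range (Dixon's 95% limit), which chance gives in about 1 in 20 groups. CCND1 measured 164.4 CPM in WT replicate 1, below 181.7 to 186.2 CPM in the other WT libraries. CDK4 measured 188.3 CPM in knockout replicate 3, above 180.2 to 182.0 CPM in the other knockout libraries. The log2 ratio of CCNL2 to CCNL1 was 0.98 in knockout replicate 4, below 1.105 to 1.133 in the others.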

How the results depend on the processing

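Over the 19 alternatives, 11 to 16 members were called higher and 6 to 9 lower, all within 1.5 times of the 14 and 8 reported. Of the 22 calls, 11 held throughout, and the others are named beside their values with the settings that ended them. The length and GC offset changed most: it ended 8 calls and added 5, and no called member changed sign in any of the 19. The CCND1 over CCND2 ratio passed with the length and GC offset (-0.44, exact permutation, adjusted p = 0.0317), and the CCNT2 over CCNT1 ratio did not (0.16, exact permutation, adjusted p = 0.0544); leaving out 1 library put the latter between 0.14 and 0.21. Replicate numbers did not pair the libraries: deviations of same-numbered libraries correlated at -0.16 to 0.70, and only replicate 3 matched its own number best. With the replicate block, edgeR called 14 members higher and 8 lower. Paired by number, the exact sign-flip test of a ratio cannot go below p = 0.0625. Counts limit CDKN2A, CDKN2B, CCNB3 and CCNO, for which no difference was detectable.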
